A study of Mus musculus with 11 samples.

Results

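The nuclear-encoded respiratory chain genes were taken by symbol from the deposited table. The rule kept numbered Nduf genes of the a, b, c, s and v series, Sdha to Sdhd, Uqcr genes, Cyc1, Cox4 to Cox8 genes and Atp5 genes, and used no measured value. It matched 83 of 17181 genes, and all 83 were among the 13074 genes tested, those reaching an FPKM of 1 in 2 or more libraries. By their names, 37 genes encode subunits of complex I, 4 of complex II, 9 of complex III, 16 of complex IV and 17 of complex V, the ATP synthase. Ndufa4 was counted under complex I by its name, although its protein is known as a subunit of complex IV. None of the 83 was listed at 0 in any library.

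The respiratory chain sits in the inner mitochondrial membrane. Complex I takes electrons from NADH and complex II from succinate, complex III passes them to cytochrome c, and complex IV hands them to oxygen, while complex V uses the proton gradient so built to make ATP. Most subunits are encoded in the nucleus and imported, and a small set of subunits of complexes I, III, IV and V is encoded in mitochondrial DNA. The deposited table holds no gene with a mitochondrial mt- symbol, so those partners were not analysed here. Several subunits of complex IV exist as isoforms, some found in most tissues and others in heart, skeletal muscle, fat, lung or testis.

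The tumours were grown from 4T1, a carcinoma line of mouse mammary gland that serves as a triple-negative breast cancer model and is labelled wild type in genotype. NSG mice received the cells in matrigel by subcutaneous injection into each flank. This strain lacks mature T, B and NK cells, and the tumours did not grow in the mammary gland. Treatment began at about 100 mm3 and lasted 12 days, with vehicle (n = 2), with 3 weekly doses of OPG-Fc at 10 mg/kg (n = 3), with daily palbociclib at 30 mg/kg (n = 3) or with palbociclib and OPG-Fc together, called the combination (n = 3). OPG-Fc binds the cytokine RANKL as a decoy, and palbociclib inhibits the kinases CDK4 and CDK6. The vehicle was sodium lactate with corn oil in DMSO, and the titles of the vehicle samples call them untreated. The labels tie no tumour to an animal, so a p-value here reflects no more than how these tumours differ among themselves, which may be partly technical. In the table's column names 1 leading number is common to combination 1 and 2, and another to OPG-Fc 2 and 3, with no meaning given.

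One library went against its label before any respiratory gene was considered. The median FPKM of 10 epithelial markers, among them Epcam and Krt8, was 2.95 in vehicle 2 and 135.6 to 320.4 in the other 10 libraries. The median of 12 lymphoid markers was 178.7 in vehicle 2, 24.1 in OPG-Fc 2 and 0.46 to 3.85 elsewhere. Results below come from all 11 libraries, followed by values that omit vehicle 2, which leaves vehicle 1 alone in its group and assumes that it varies like the other groups. The FPKM of a library summed to between 576699 and 864670, and with no counts in the table the read depth is unknown.

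Promoters are shown first, for the letters that a known regulator of these genes binds. NRF1 is a transcription factor known to act on many nuclear genes of the respiratory chain, and its letters were searched as GCGCATGCG on both strands. RefSeq promoters of 300 bases, from 250 before to 50 after the gene start in build GRCm38.p6, were matched by symbol for 68 of the 83 genes. NRF1 letters were found in 8 of the 68 (11.8%), beside 3.91% of the promoters of 10383 tested genes in that table. In Uqcr11 and Uqcrc1 they lie only after the start, and the other 6 sites are printed 5′ to 3′ on the strand of the gene, with the NRF1 letters, read on either strand, in capitals.
Atp5g2: ggctccggccGCGCATGCGCagagccttcc
Atp5k: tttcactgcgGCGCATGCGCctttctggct
Atp5l: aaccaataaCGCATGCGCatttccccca
Cox6a1: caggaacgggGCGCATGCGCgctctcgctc
Ndufa11: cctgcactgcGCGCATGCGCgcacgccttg
Ndufa8: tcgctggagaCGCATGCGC

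The stretch of Atp5g2, which encodes the c subunit of the ATP synthase, lies at chr15:102671070-102671099 on the minus strand, and its letters begin 42 bases before the start. That of Atp5k, the e subunit of the ATP synthase, lies at chr5:108434430-108434459 on the minus strand, 50 bases before the start. That of Atp5l, the g subunit, lies at chr9:44920965-44920992 on the minus strand, 241 bases before the start. In complex IV, the stretch of Cox6a1 lies at chr5:115349101-115349130 on the minus strand, 162 bases before the start. In complex I, that of Ndufa11 lies at chr17:56717692-56717721 on the plus strand, 60 bases before the start, and that of Ndufa8 at chr2:36049339-36049357 on the minus strand, 9 bases before the start. In GENCODE M21, the stretches of Atp5g2, Atp5k and Ndufa8 overlap an exon of an annotated transcript of the same gene, that of Cox6a1 overlaps an exon of Gm42903, and those of Atp5l and Ndufa11 lie in no exon. The 6 genes all had a positive log2 fold change for the combination against OPG-Fc, from 0.19 ± 0.16 for Atp5k to 0.65 ± 0.28 for Cox6a1 (SE), as did 80 of the 83 members.

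Letters of 3 other factors known to act on these promoters were searched in the same windows on both strands. The ETS letters CCGGAAG, bound by GABP, were in 17 of 68 promoters (25%) beside 19.6% of tested genes. The YY1 letters AAGATGGCG were in 7 (10.3%) beside 3.39%, and among their bearers were Ndufs7, Ndufs4 and Atp5j2. The SP1 letters GGGCGG were in 27 (39.7%) beside 66.7%. NRF1 and ETS letters stood together in 4 promoters, and 24 of the 68 held none of the 4 motifs. A match says only that these letters are present, and a missing match only that they are not in this window.

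By the median over their genes, complexes IV and V stood above complexes I, II and III in every library. The mean log2(FPKM + 1) did not keep this order for complex IV, which in vehicle 1 had 6.26 beside 6.38 for complex I. FPKM is scaled to transcript length, and on that ground levels were set side by side between genes. The scaling was not checked for these short genes (median 648 bases), so the ranks are approximate. The median over the members of each complex, taken from each gene's median FPKM over the 11 libraries, was 377 for complex V, 297 for complex IV, 135 for complex III, 112 for complex II and 104 for complex I. Complexes II and III overlapped in the vehicle and OPG-Fc libraries and complex I overlapped complex II, so these neighbours are not separated by their spread over tumours. The highest members were Cox4i1 at a median FPKM of 792, Cox6c at 777, Cox8a at 769.9, Atp5b at 721 and Atp5l at 677. The lowest outside the tissue isoforms were Ndufa11 at 14.9, Ndufs1 at 36.4 and Ndufb2 at 38.5.

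**Figure D1:**
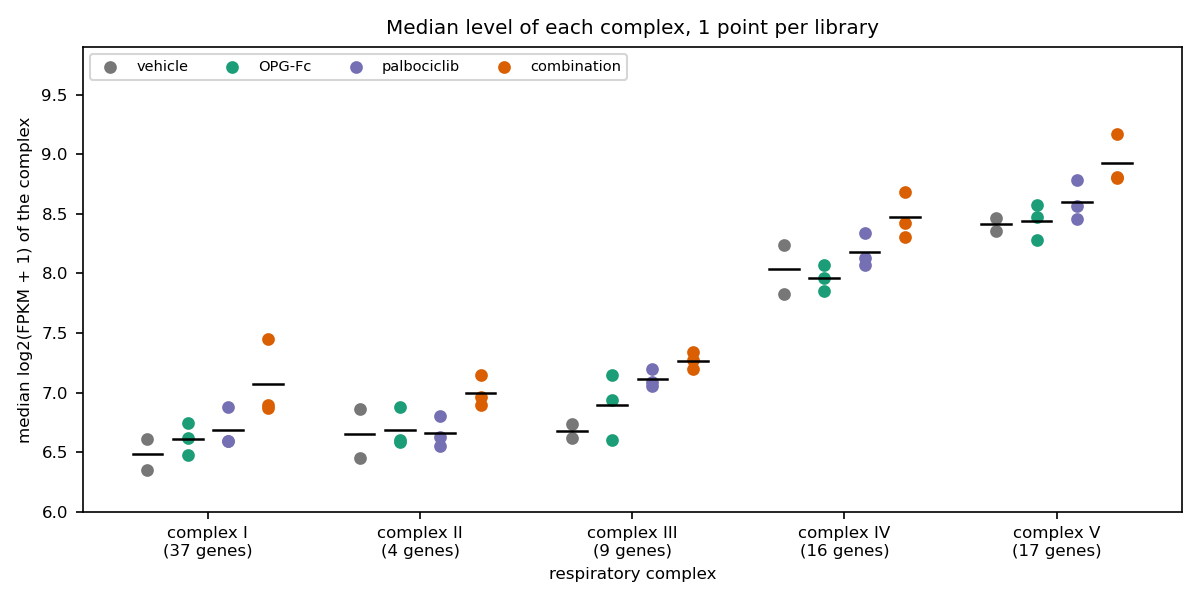
Median log2(FPKM + 1) over the genes of each complex (vertical axis) in each library (points, coloured by treatment), with the mean of the group as a bar. Complexes IV and V lie above complexes I to III in every library, and combination 3 is the highest point of each complex.

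The members as a set took 2.80% to 3.56% of all FPKM. Their share was 2.82% and 3.16% with vehicle, 2.80%, 3.11% and 2.93% with OPG-Fc, 2.89%, 3.03% and 2.89% with palbociclib and 3.13%, 3.01% and 3.56% with the combination. The combination overlapped every other group in this share. The mean log2(FPKM + 1) over the 83 genes was 6.80 and 7.17 with vehicle, 6.89, 7.23 and 7.06 with OPG-Fc, 7.06, 7.33 and 7.05 with palbociclib and 7.33, 7.27 and 7.76 with the combination. On this scale the combination lay above OPG-Fc in every library but overlapped palbociclib, and combination 3 stood above all others. Combination 3 held the highest value of 68 of the 83 genes and vehicle 2 that of 12, while vehicle 1 held the lowest value of 40 and OPG-Fc 1 that of 23. Combination 3 was also the library with the highest FPKM sum and with the highest share of FPKM in 81 cytosolic ribosomal protein genes, 33.5% against 20.1% to 32.1% in the others. Whether that composition moved the respiratory values was not tested beyond the other scalings given below.

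**Figure D2:**
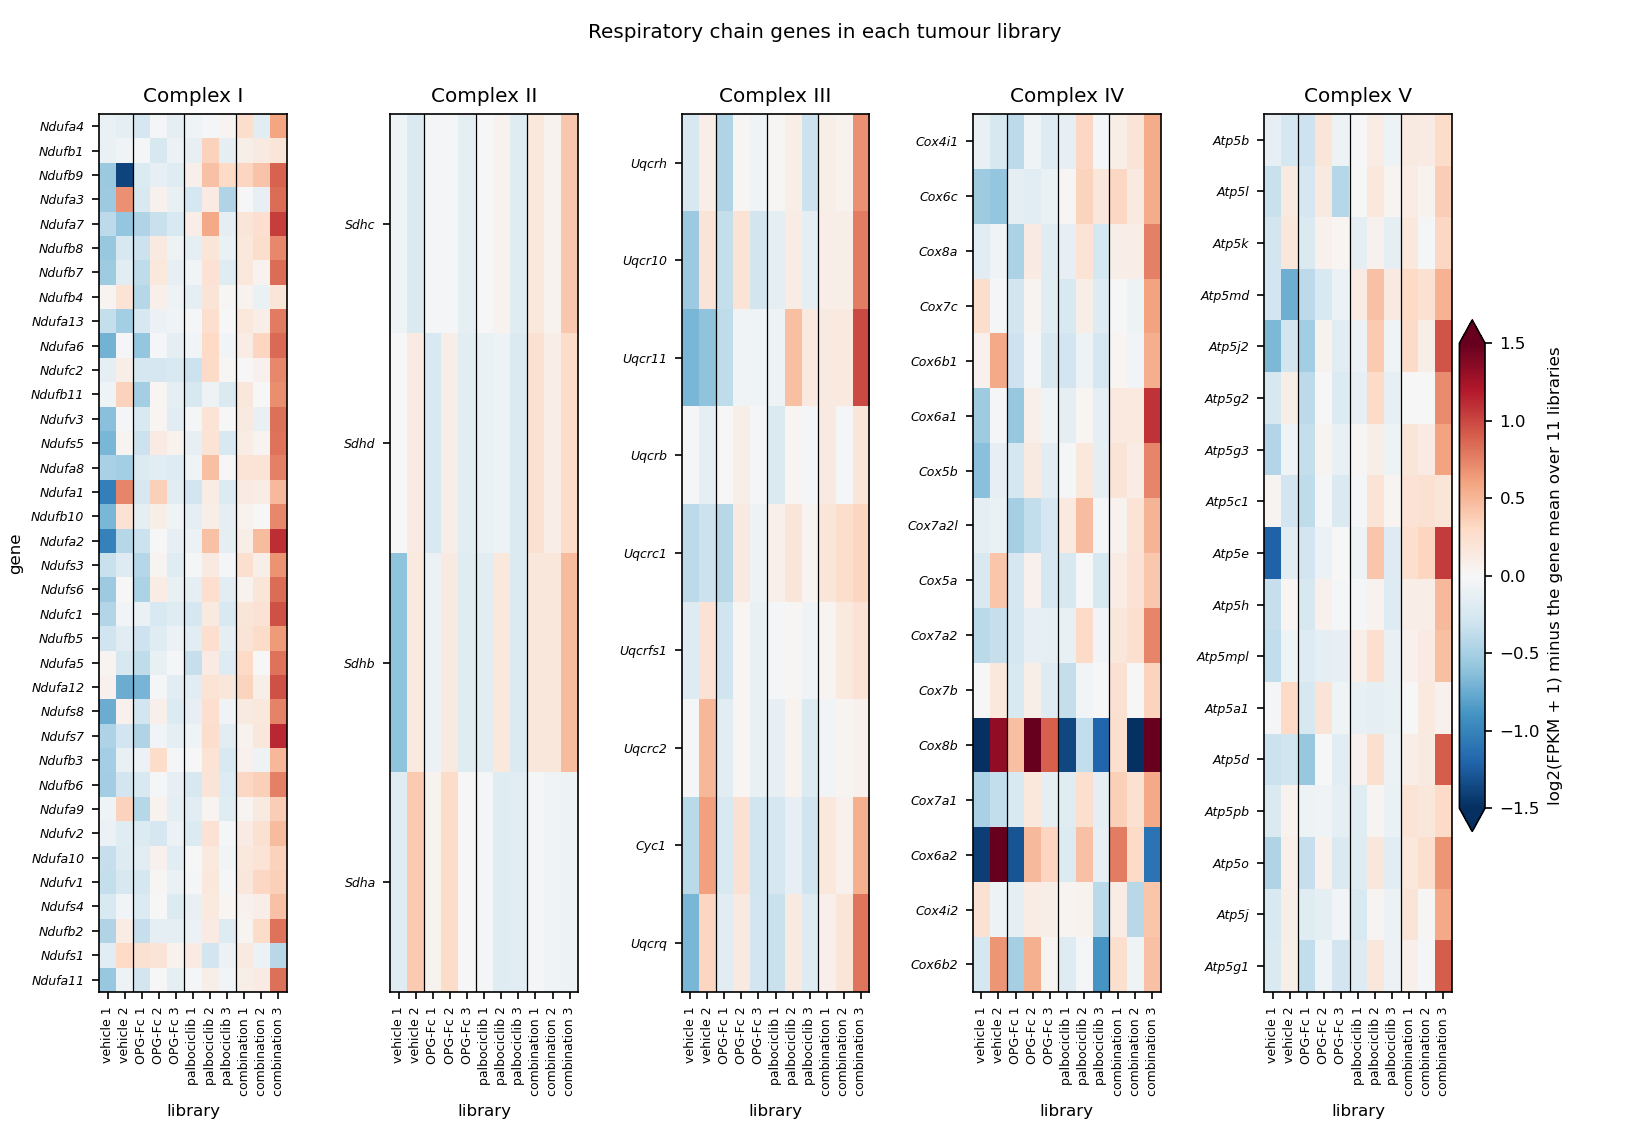
Log2(FPKM + 1) of the respiratory chain genes, all but 1 of the 83 (rows, by complex), in the 11 libraries (columns, by treatment), minus the mean of the gene over the libraries. Red is above and blue below that mean, and values past 1.5 either way take the end colours. The column of combination 3 is red in nearly all rows, and Cox8b and Cox6a2 vary most.

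In complex I, the 7 nuclear core subunits carry the flavin and the iron-sulfur clusters, and the 30 accessory genes encode the shell around them. Ndufs1, the large iron-sulfur subunit, had FPKM values of 31.0 and 43.0 with vehicle, 41.1, 40.1 and 36.4 with OPG-Fc, 38.0, 28.8 and 32.7 with palbociclib and 38.3, 32.9 and 25.9 with the combination. Its lowest value was in combination 3, where most other members were highest, and the groups overlapped. Ndufv1, the subunit that binds NADH and flavin, had 49.5 and 53.6 with vehicle, 52.6, 64.1 and 59.1 with OPG-Fc, 62.5, 71.1 and 62.1 with palbociclib and 71.5, 79.3 and 81.8 with the combination. The combination lay above every other library for Ndufv1.

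Among the accessory genes, Ndufb9 of the membrane arm had the widest range over the tumours. It had FPKM values of 216 and 122 with vehicle, 277, 293 and 281 with OPG-Fc, 338, 434 and 395 with palbociclib and 400.3, 431 and 592 with the combination. Both vehicle tumours were lowest, the OPG-Fc tumours lay close together above them, and every palbociclib and combination tumour lay above these. Ndufb6, also of the membrane arm, had 57.3 and 68.5 with vehicle, 70.6, 81.8 and 75.9 with OPG-Fc, 69.9, 95.4 and 72.2 with palbociclib and 103, 107 and 141 with the combination, with the combination above all other libraries. Ndufa7 had 169 and 148 with vehicle, 162, 177 and 189.7 with OPG-Fc, 237, 329 and 201 with palbociclib and 253, 264 and 459 with the combination, and the palbociclib and combination tumours were above the others but overlapped each other. Ndufb8, often used as a marker of assembled complex I, had 135 and 170.2 with vehicle, 161, 220.3 and 191 with OPG-Fc, 182, 228 and 188 with palbociclib and 225, 243 and 333 with the combination. For Ndufa9, next to the quinone site, the values were 69.0 and 92.5 with vehicle, 53.7, 74.9 and 65.4 with OPG-Fc, 64.5, 74.4 and 63.8 with palbociclib and 74.5, 79.7 and 94.2 with the combination, and vehicle 2 was among the highest. Ndufb4 differed little between groups, with a range of 133 to 205.

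Complex II has 4 nuclear subunits and no mitochondrial one, and also belongs to the tricarboxylic acid cycle. Sdha, the flavoprotein that oxidises succinate, had FPKM values of 49.9 and 74.8 with vehicle, 58.9, 68.9 and 56.9 with OPG-Fc, 55.6, 50.2 and 50.6 with palbociclib and 55.9, 54.9 and 53.9 with the combination. Vehicle 2 was highest, and all combination and palbociclib tumours lay below all OPG-Fc tumours. Sdhb, the iron-sulfur subunit, had 65.6 and 112 with vehicle, 94.5, 110.4 and 88.6 with OPG-Fc, 89.0, 112 and 86.5 with palbociclib and 113, 113 and 140.3 with the combination, with the 3 combination tumours above the other 8. The membrane anchors Sdhc and Sdhd had the same order, with the combination above OPG-Fc and palbociclib, and ranges over all libraries of 118 to 183 and 98.1 to 140.4. Median SD over the libraries, on the log2 scale, was smallest in this complex (0.18) and largest in complex I (0.34).

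In complex III, Cyc1 (cytochrome c1), Uqcrfs1 (the Rieske iron-sulfur protein) and the core proteins Uqcrc1 and Uqcrc2 form the larger subunits. Cyc1 had FPKM values of 48.3 and 99.1 with vehicle, 54.6, 75.7 and 52.1 with OPG-Fc, 54.0, 58.9 and 51.9 with palbociclib and 71.8, 67.5 and 93.5 with the combination, with vehicle 2 highest and vehicle 1 lowest of all 11. Uqcrc2 had 73.0 and 106 with vehicle, 66.0, 76.3 and 68.9 with OPG-Fc, 68.6, 77.3 and 64.6 with palbociclib and 72.6, 76.5 and 77.8 with the combination, where vehicle 2 again stood above every other tumour. Uqcrc1 had 97.3 and 103 with vehicle, 95.9, 141 and 122 with OPG-Fc, 135, 146 and 132 with palbociclib and 145, 153 and 161 with the combination, with all palbociclib and combination values above both vehicle values. Of the small subunits, Uqcrb, which lies by the quinone sites, was the steadiest of the 83 genes, with an SD of 0.11 on the log2 scale and a range of 182 to 240.2. Uqcr11 had 195 and 207 with vehicle, 242, 304 and 302 with OPG-Fc, 298, 431 and 348 with palbociclib and 345, 348 and 626 with the combination, with both vehicle tumours lowest.

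Complex IV has 11 genes of the forms found in most tissues, which reached the highest levels of the chain. Cox4i1, which regulates the complex and is the usual form of subunit 4, had FPKM values of 766 and 701 with vehicle, 631, 792 and 723 with OPG-Fc, 760.0, 1024 and 821 with palbociclib and 878, 943 and 1221 with the combination. Cox6c had 531 and 513 with vehicle, 697, 688 and 718 with OPG-Fc, 777, 968 and 868 with palbociclib and 952, 844 and 1129 with the combination, with both vehicle tumours lowest and the palbociclib and combination tumours above all others. Cox7a2l, which takes part in supercomplexes of the chain, had 287 and 296 with vehicle, 225, 246 and 265 with OPG-Fc, 350.0, 439 and 313 with palbociclib and 329.8, 365 and 453 with the combination. For Cox7a2l the OPG-Fc tumours were lowest, and the palbociclib and combination tumours were above all others but overlapped each other. Cox6b1 went another way, with 654 and 930.4 with vehicle, 505, 620.0 and 532 with OPG-Fc, 512, 592 and 527 with palbociclib and 639, 609 and 914 with the combination and its highest value in vehicle 2.

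The 5 tissue isoforms of complex IV were far lower than their widespread partners. Cox8b, the isoform of heart, skeletal muscle and brown fat, had FPKM values of 0.60 and 19.4 with vehicle, 10.1, 35.2 and 14.1 with OPG-Fc, 2.15, 5.27 and 2.55 with palbociclib and 8.66, 1.76 and 26.3 with the combination, while Cox8a had a median of 769.9. OPG-Fc tumours were all above the palbociclib tumours for Cox8b, and the combination spanned nearly the whole range. Cox6a2, the heart and muscle form, had 0.45 and 12.9 with vehicle, 0.58, 4.42 and 3.84 with OPG-Fc, 2.35, 4.22 and 2.54 with palbociclib and 5.58, 3.71 and 0.79 with the combination, beside a median of 505 for Cox6a1. Cox6a2 was highest in vehicle 2 and lowest in vehicle 1, OPG-Fc 1 and combination 3. Cox4i2, known from lung, ranged from 1.69 to 3.79, Cox7a1, of heart and muscle, from 3.09 to 7.50, and Cox6b2, of testis, from 0.46 to 3.27. The partners of those 3 genes, Cox4i1, Cox7a2 and Cox6b1, had medians of 792, 161 and 609.

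Marker lists of fat and muscle are given beside the isoforms. The median FPKM of 10 white adipocyte markers was 4.26 and 56.3 with vehicle, 45.3, 74.7 and 28.2 with OPG-Fc, 3.71, 3.95 and 2.43 with palbociclib and 13.9, 4.20 and 22.4 with the combination. Cox8b was high in the same libraries, with both at their highest in OPG-Fc 2. The median of 14 skeletal muscle markers was 0.06 and 0.15 with vehicle, 0.97, 22.5 and 14.3 with OPG-Fc, 7.12, 12.3 and 2.16 with palbociclib and 11.2, 10.7 and 2.91 with the combination. Cox6a2 was low where the muscle list was low in vehicle 1, OPG-Fc 1 and combination 3, but not in vehicle 2. In palbociclib 3 the list (2.16) was below that of combination 3 (2.91), yet Cox6a2 was higher in palbociclib 3. Cox7a1 was highest in combination 3, where the muscle list was low. The 6 brown adipocyte markers had medians of 0.04 to 1.42, and 3 of the 6 were at 0 in vehicle 1. In whole tumours, fewer cells of a type and less RNA per cell cannot be told apart, and the part of these tissues in the isoform values was not tested.

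**Figure D3:**
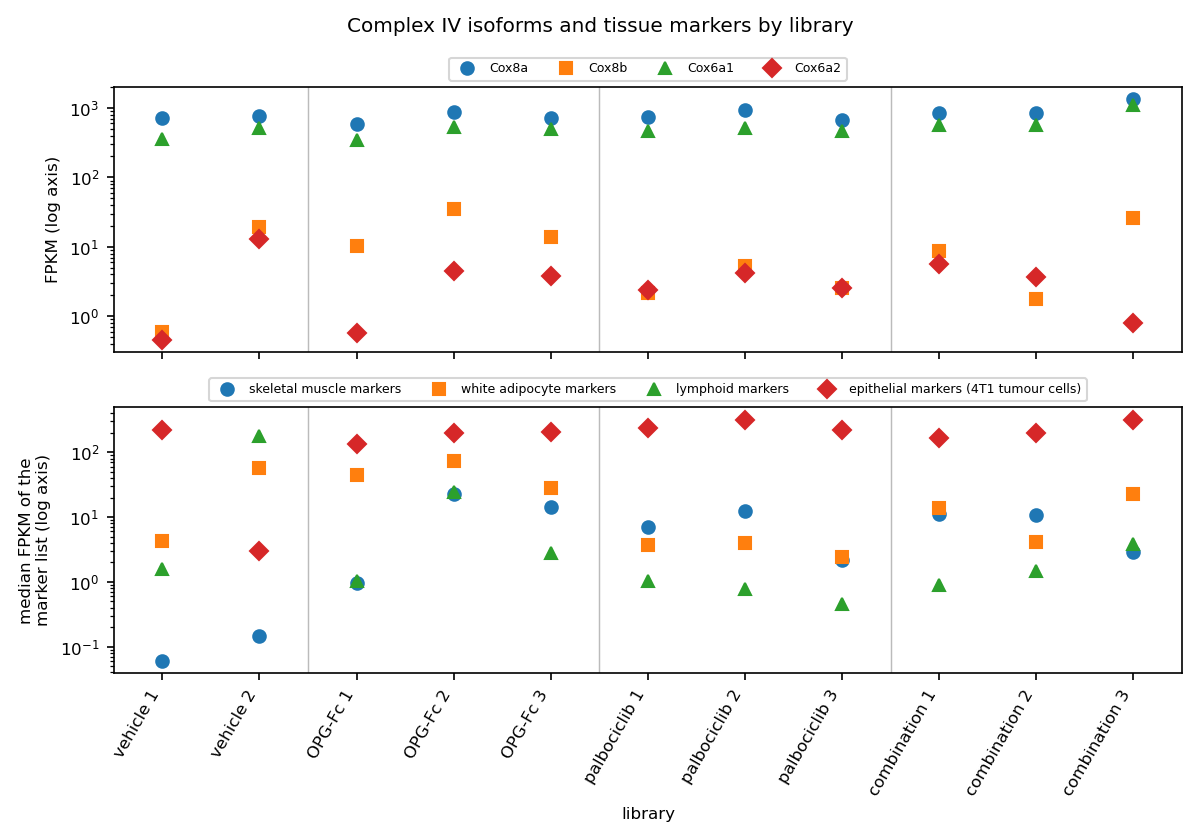
FPKM of 2 widespread and 2 tissue isoforms of complex IV (top) and median FPKM of 4 marker lists (bottom) in each library, both on log axes. Cox8a and Cox6a1 stay between 344 and 1349 in all libraries, while Cox8b and Cox6a2 range from 0.45 to 35.2 and vehicle 2 alone has low epithelial markers.

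In complex V, Atp5a1 and Atp5b form the catalytic head. Atp5a1, the alpha subunit, had FPKM values of 326 and 407 with vehicle, 282, 379 and 318 with OPG-Fc, 308, 302 and 307 with palbociclib and 330.3, 369 and 347 with the combination, among the steadiest of the set (SD 0.16 on the log2 scale). Atp5b, the catalytic beta subunit, had 659 and 596 with vehicle, 577, 811 and 679 with OPG-Fc, 721, 774 and 681 with palbociclib and 783, 779.7 and 867 with the combination. Neither pattern followed the treatments in every library, with vehicle 2 highest for Atp5a1 and OPG-Fc 2 close to the combination for Atp5b. Atp5e, the epsilon subunit of the stalk, had 171 and 353 with vehicle, 325, 374 and 397 with OPG-Fc, 377, 532 and 349.8 with palbociclib and 476, 500.4 and 824 with the combination, and its ratio of highest to lowest, 4.8, was the largest of complex V. Atp5md, a small membrane subunit also called DAPIT, had 472 and 345 with vehicle, 436, 490.2 and 541 with OPG-Fc, 627, 779 and 629.6 with palbociclib and 709.5, 672 and 826 with the combination, and every palbociclib and combination tumour lay above every other tumour. The 3 genes Atp5g1, Atp5g2 and Atp5g3 encode the same mature c subunit and had medians of 152, 492 and 486. All 3 were highest in combination 3.

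The combination was compared with OPG-Fc to see what palbociclib added to it. Of the 83 genes, 80 had a positive log2 fold change, and their median was 0.44 beside -0.07 over all genes tested. The medians were 0.47 for complex I, 0.29 for complex II, 0.38 for complex III, 0.42 for complex IV and 0.41 for complex V. No member passed limma's test at an adjusted p under 0.05, where 0.0994% of all genes did, while 40 were higher and 0 lower at an unadjusted p under 0.05, where 6.68% and 8.77% of all genes were. For 50 members all 3 combination values were above all 3 OPG-Fc values, beside 15.3% of all genes, and for 1, Sdha, all were below, beside 23.5%. The smallest p-values were those of Cox7a2l (0.63 ± 0.17 (SE), adjusted p = 0.237), Ndufb6 (0.60 ± 0.17 (SE), adjusted p = 0.245) and Ndufb5, another membrane arm subunit (0.57 ± 0.16 (SE), adjusted p = 0.247), all by limma. The only negative log2 fold changes were those of Ndufs1 (-0.28 ± 0.18), Sdha (-0.16 ± 0.16) and Cox8b (-1.02 ± 1.01).

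Without vehicle 2, which changes only the estimate of spread here, 4.7% of all genes passed limma's test and 2 members did. These were Ndufb9, with a log2 fold change of 0.72 ± 0.16 (SE) and an adjusted p of 0.0415, and Atp5md, with 0.59 ± 0.14 and 0.0498. Without combination 3 the median of the members was 0.26 beside -0.03 over all genes, with 78 of 83 positive. Scaling every library to the same FPKM sum moved the median over all genes from -0.07 to -0.34 and that of the members to 0.13, with 62 positive, so the members lay 0.47 above all genes, beside 0.51 as first scaled. Quantile normalization gave member and all-gene medians of 0.23 and 0.02.

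**Figure D4:**
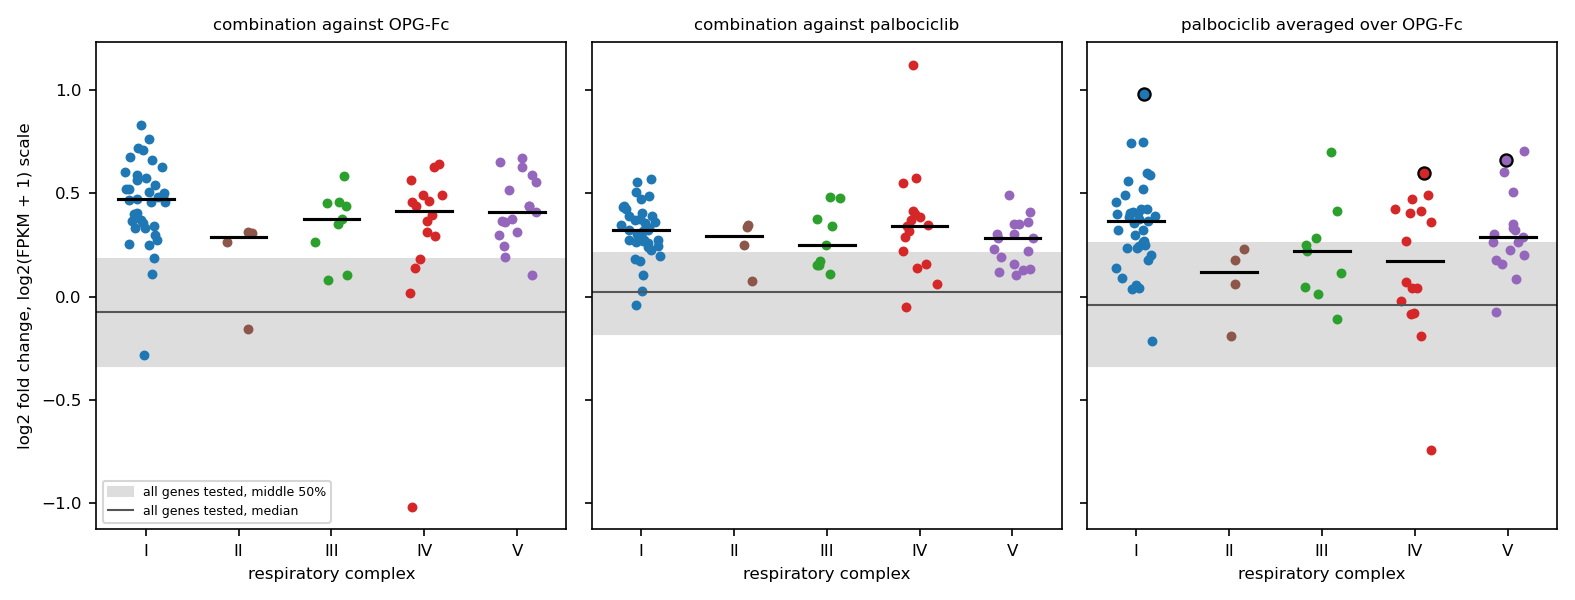
Log2 fold change of each member (points, by complex) in 3 comparisons, with the median of the complex as a bar. The grey band holds the middle 50% of all genes tested and the line is their median, and the 3 points with a black ring passed limma's test.

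Set against palbociclib alone, the combination shows what OPG-Fc added. Here 81 of 83 genes had a positive log2 fold change, with a median of 0.31 beside 0.02 over all genes. By complex the medians were 0.32 for I, 0.29 for II, 0.25 for III, 0.34 for IV and 0.29 for V. By limma, 0% of all genes and 0 members passed at an adjusted p under 0.05, and 7 members were higher and 0 lower at an unadjusted p under 0.05, beside 4.22% and 2.53% of all genes. Values did not overlap for 20 members that were higher, beside 13.7% of all genes, and for 0 that were lower, beside 7.04%. Ndufb6 (0.56 ± 0.17 (SE), adjusted p = 0.702), Sdhd (0.34 ± 0.12 (SE), adjusted p = 0.730) and Ndufc1, a small membrane subunit of complex I (0.57 ± 0.22 (SE), adjusted p = 0.730), had the smallest p-values by limma. The 2 negative changes were those of Ndufs1 (-0.04 ± 0.18) and Cox6a2 (-0.05 ± 0.82). Without combination 3 the median was 0.14 beside 0.04 over all genes, with 77 members positive. The members then lay 0.10 above all genes, beside 0.285 with all libraries. With libraries scaled to the same FPKM sum the member median was 0.16 beside -0.10 over all genes.

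Palbociclib against no palbociclib, averaged over OPG-Fc, used all 11 tumours. Ndufb9, Cox6c and Atp5md rose, and 0 members fell, where 2.83% of all genes passed limma's test, so 3 of 83 is near the background. Ndufb9 rose by 0.98 ± 0.17 (SE), adjusted p = 0.0391, Cox6c, an essential small subunit of complex IV, by 0.60 ± 0.11 (SE), adjusted p = 0.0415, and Atp5md by 0.66 ± 0.13 (SE), adjusted p = 0.045, by limma on the log2 scale. For all 3 the 6 tumours with palbociclib lay above the 5 without it. The same held for 8 members, beside 4.01% of all genes, and the other 5 were Ndufa7, Ndufa8, Ndufa13, Cox7a2 and Cox7a2l. At an unadjusted p under 0.05, 36 members were higher and 0 lower, beside 14.2% and 19.6% of all genes. The median over the members was 0.29 beside -0.04 over all genes, with 74 positive, and by complex it was 0.37, 0.12, 0.22, 0.17 and 0.29 for I to V. With libraries scaled to the same FPKM sum, the members had a median of 0.03 with 48 positive, and all genes -0.26.

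All 3 calls were lost when any 1 of OPG-Fc 1, 2 or 3, palbociclib 1 or 3, or combination 1, 2 or 3 was left out, with the smallest adjusted p of a member between 0.0660 and 0.125. Their log2 fold changes in those fits were 0.90 to 1.04 for Ndufb9, 0.54 to 0.65 for Cox6c and 0.62 to 0.70 for Atp5md. The calls were also lost with libraries sharing a column number averaged (lowest limma adjusted p = 0.177), with the replicate number as a block (0.126) and with array weights (0.309). After length correction Ndufb9 (0.87 ± 0.17) and Cox6c (0.47 ± 0.10) both had a limma adjusted p of 0.0551, and Atp5md, which has no length, was not tested. Without palbociclib 2, 2 members were called. Without vehicle 2, 4 members passed, where 3.91% of all genes did, namely the same 3 and Atp5e (0.97 ± 0.20, SE, limma adjusted p = 0.0362). Without vehicle 1, where the vehicle group is the tumour without epithelial markers, 23 were called and so were 53% of all genes. With libraries scaled to the same FPKM sum, limma called 8 members, 6 higher and 2 lower, and 17.1% of all genes, and the 2 lower members were Sdha (-0.44 ± 0.13) and Uqcrc2 (-0.36 ± 0.11).

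Comparisons with vehicle share its 2 tumours, so their values are set side by side only. For palbociclib the median over the members was 0.15 beside -0.04 over all genes, with 61 of 83 positive. With libraries scaled to the same FPKM sum it turned to -0.04, beside -0.22 over all genes. For OPG-Fc it was 0.07 beside 0.04, with 50 positive, and under the transcript length correction -0.07 beside -0.06. For the combination it was 0.47 beside -0.01, with 75 positive. It was 0.12 beside -0.31, with 52 positive, at the same FPKM sum, and 0.24 beside -0.015 after length correction. Without vehicle 2 the 3 medians were 0.36, 0.23 and 0.63, so this 1 library moved them by more than 1.5 times for palbociclib and OPG-Fc. In each of the 3, limma called 0% of all genes and 0 members at an adjusted p under 0.05.

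At an unadjusted p under 0.05, 11 members were higher and 1 lower with palbociclib, beside 13.6% and 14.5% of all genes, so the count of higher members is near the background. With OPG-Fc 2 were higher and 1 lower, beside 7.6% and 2.56%. With the combination 39 were higher and 0 lower, beside 15.3% and 14.3%. Ndufb9 and Cox6c had the 2 smallest p-values of positive changes in each of the 3, with changes for Ndufb9 of 1.25 ± 0.25, 0.80 ± 0.25 and 1.52 ± 0.25 (SE) and limma adjusted p of 0.158, 0.471 and 0.0557. Cox6c had 0.73 ± 0.16, 0.43 ± 0.16 and 0.89 ± 0.16, with limma adjusted p of 0.158, 0.471 and 0.0557. After them among positive changes came Atp5md with palbociclib (0.74 ± 0.19), Ndufa2 with OPG-Fc (0.57 ± 0.31), which did not reach an unadjusted p of 0.05, and Ndufb6 with the combination (0.88 ± 0.19). The lower member was Cox6b1 both with palbociclib (-0.52 ± 0.22) and with OPG-Fc (-0.50 ± 0.22), and its values without vehicle 2 were -0.27 and -0.25. Below 0 in these comparisons but without an unadjusted p under 0.05 were Uqcrc2 (palbociclib -0.32 ± 0.17, OPG-Fc -0.32 ± 0.17, combination -0.21 ± 0.17) and Atp5a1 with palbociclib (-0.25 ± 0.16).

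The single drugs were compared directly as well. For palbociclib against OPG-Fc the member median was 0.11 beside -0.04 over all genes, with 61 positive. With libraries scaled to the same FPKM sum it was -0.04 beside -0.18 over all genes. Of all genes 0.91% passed limma's test and of the members 0, while 2 members were higher and 0 lower at an unadjusted p under 0.05, beside 2.93% and 9.37%. All 3 palbociclib values were above all 3 OPG-Fc values for 9 members, beside 11.3% of all genes, and below them for 2, Sdha and Cox8b, beside 21.8%. Cox7a2l (0.57 ± 0.17 (SE), adjusted p = 0.163) and Atp5md (0.47 ± 0.17 (SE), adjusted p = 0.265) were the 2 higher members by limma. Cox8b had the largest negative change, -2.14 ± 1.01 (SE), in the comparison in which the white adipocyte markers also differed most (median -3.46). Whether fat in the tumours had a part in this change was not tested. With only these 2 groups fitted, Cox8b had -2.14 ± 0.44 (SE) and passed limma's test (adjusted p = 0.0193). The share of all genes that passed in that fit is given below.

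Whether palbociclib acted differently with OPG-Fc was tested as the interaction. By limma 0% of all genes and 0 members passed, and 5 members were higher and 0 lower at an unadjusted p under 0.05, beside 2.3% and 3.12% of all genes. Cox6b1 (0.89 ± 0.30 (SE), adjusted p = 0.647), Sdhd (0.50 ± 0.19 (SE), adjusted p = 0.647) and Ndufb11, of the complex I membrane arm (0.82 ± 0.32 (SE), adjusted p = 0.647), had the smallest p-values by limma. Ndufb9 had the smallest p below 0 (-0.53 ± 0.34 (SE), adjusted p = 0.647, limma). The median over the members was 0.23 with all libraries and 0.11 without vehicle 2, beside -0.02 and -0.07 over all genes. Under quantile normalization without vehicle 2 it was -0.002 beside 0.03 over all genes.

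Values were also read against transcript length. The median length of the members was 648 bases in 80 genes with a length, beside 2107 over all genes tested. For the combination against OPG-Fc, Spearman's rho between length and log2 fold change was -0.465 across 12747 genes, which share the same 6 libraries and are not independent replicates, and -0.107 across the 80 members. Genes under 1 kb had a median change of 0.17, those over 4 kb -0.37, and the 62 members under 1 kb 0.46. The 18 members of 1 kb or more had a median of 0.32. For OPG-Fc against vehicle rho over all genes was -0.066. After a correction for length by a spline, the median of the members was 0.32 for the combination against OPG-Fc, 0.19 for the combination against palbociclib and 0.19 for palbociclib averaged over OPG-Fc, beside 0.04, 0.00 and 0.01 over all genes.

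**Figure D5:**
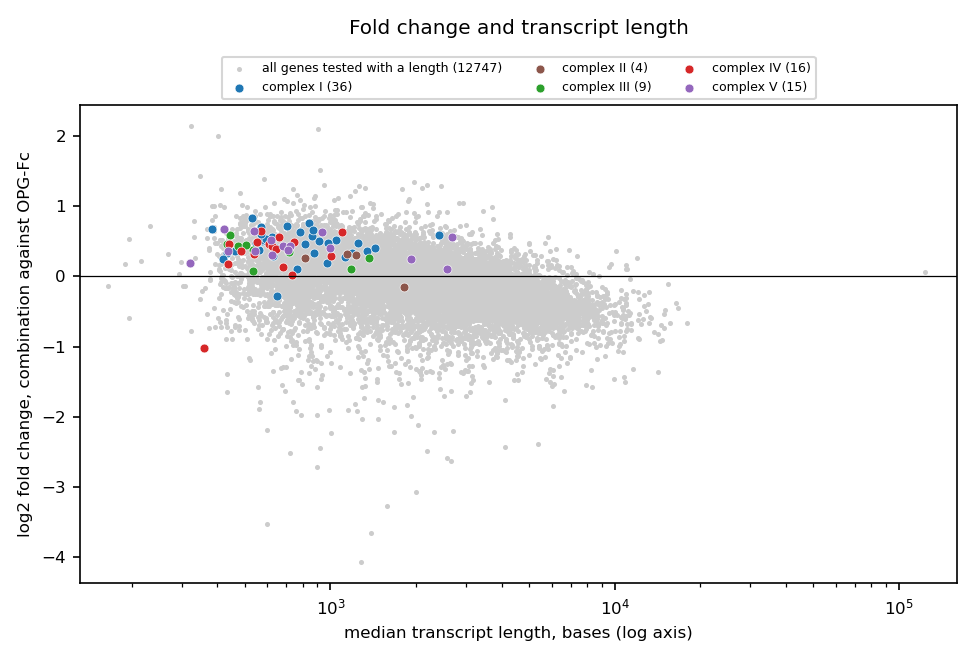
Log2 fold change of the combination against OPG-Fc (vertical axis) by median transcript length on a log axis, for 12747 genes (grey) and the 80 members with a length (coloured by complex). Grey points slope down with length, and most members lie above 0 at lengths where the grey points centre near 0.17.

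Factors that build the complexes were read from lists of assembly genes, for the combination against OPG-Fc. None of their members passed limma's test, and counts at an unadjusted p under 0.05 follow. Of all genes, 6.68% were higher and 8.77% lower at that threshold. Of 17 complex I factors 14 were positive (median 0.18), 2 were higher and 0 lower, led by Nubpl, which delivers iron-sulfur clusters (0.44 ± 0.16, SE), and Ndufaf6 (0.34 ± 0.15). Of 11 factors of complexes II and III 9 were positive (median 0.26), with 2 higher, Bcs1l, the chaperone that inserts the Rieske protein (0.54 ± 0.19), and Sdhaf4 (0.50 ± 0.21). Of 26 complex IV factors 21 were positive (median 0.31) and 8 higher, with Coa8 (0.50 ± 0.16), Cox18 (0.46 ± 0.15) and Cmc2 (0.49 ± 0.16) first. All 6 complex V factors were positive (median 0.29) and 2 were higher, Fmc1 (0.76 ± 0.26) and Tmem242 (0.42 ± 0.18). These medians lie between that of all genes and that of the subunits.

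Other parts of the pathway are given for the same comparison, in which 6.68% of all genes were higher and 8.77% lower at an unadjusted p under 0.05. Among 9 further subunits and electron carriers that the symbol rule leaves out, 7 were positive (median 0.13) and 2 higher at an unadjusted p under 0.05, the acyl carrier subunit Ndufab1 (0.34 ± 0.13, SE) and Dhodh, which feeds electrons from pyrimidine synthesis (0.27 ± 0.12). Of 21 tricarboxylic acid cycle genes 9 were positive (median -0.01), with 2 higher, Idh3b (0.39 ± 0.14) and Mdh2 (0.32 ± 0.12), and 1 lower, Pcx, pyruvate carboxylase (-2.22 ± 0.65). Pcx had FPKM values of 13.7, 27.1 and 5.25 with OPG-Fc, 2.34, 1.15 and 2.58 with the combination and 13.0 in vehicle 2. White adipocyte markers were also lower with the combination than with OPG-Fc, and a part of fat in the Pcx values was not tested. Of 14 outer membrane and import genes 12 were positive (median 0.39) and 4 higher, first Tomm22, a receptor of the import channel (0.64 ± 0.15). Of 13 tested transcription factors and coactivators of respiratory genes 6 were positive (median -0.02) and 2 were lower, Pprc1 (-0.52 ± 0.19) and Hcfc1 (-0.70 ± 0.28). Gabpa, the DNA-binding subunit of GABP, had -0.44 ± 0.22.

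For palbociclib averaged over OPG-Fc, where 2.83% of all genes passed limma's test, 1 of the 9 further subunits and carriers and 1 of the 14 import genes did, and 0 of the other 6 lists. Dhodh rose by 0.39 ± 0.09 (SE, adjusted p = 0.0498) and Tomm22 by 0.51 ± 0.11 (adjusted p = 0.0498), both by limma. The list medians were 0.09 for complex I factors, 0.08 for those of II and III, 0.21 for IV and 0.22 for V, 0.40 for outer membrane and import genes, 0.01 for the tricarboxylic acid cycle and -0.11 for the transcription factors. Hcfc1 (-0.87 ± 0.21, limma adjusted p = 0.0556) and Esrra, a nuclear receptor of respiratory genes (0.40 ± 0.10, limma adjusted p = 0.0608), did not pass.

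Marker lists of other cell types also moved between the groups compared, and their part in the respiratory values was not tested. For the combination against OPG-Fc the median was -1.09 over 8 fibroblast and collagen genes, -1.002 over 8 endothelial genes, -0.60 over 10 macrophage genes, -2.01 over 10 white adipocyte genes, -0.76 over 12 lymphoid genes, 0.98 over 10 keratinocyte genes and 0.28 over 10 epithelial genes. Over 12 tested skeletal muscle genes it was 0.11, and over 4 tested brown adipocyte genes -0.10. By limma, Cdh5 of endothelium (-1.36 ± 0.16, SE) and Col3a1 of collagen (-1.79 ± 0.23) fell, both with an adjusted p of 0.0377. Keratinocyte markers were high in palbociclib 1 and 3, at median FPKM of 94.8 and 66.9 against 0.06 to 9.41 elsewhere. For palbociclib averaged over OPG-Fc, limma called 6 of 8 endothelial, 2 of 10 macrophage and 2 of 8 fibroblast genes, all lower, beside 2.83% of all genes. Of the muscle genes it called 1, Mb, which rose (1.99 ± 0.42, adjusted p = 0.0481). The epithelial median in that comparison was 1.73 with vehicle 2 and 0.23 without it.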

How the data were processed

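Poly(A) RNA of 11 whole tumours was sequenced, per the labels' protocols, and the authors deposited 1 table of FPKM values per gene. The submitters' processing notes name HISAT, Bowtie2, RSEM and the build GRCm39 (mm39), with no versions or roles. FPKM hold no counts, so depth is unknown. The values were analysed as log2(FPKM + 1) in limma 3.58.1 (R 4.3.3), in 1 fit of all 11 libraries with a trend in the variance prior. Genes had to reach an FPKM of 1 in 2 or more libraries, and p-values were Benjamini-Hochberg adjusted over all 13074 genes (threshold 0.05). Fold changes on this scale understate those of low genes. Tables and figures used Python 3.11.15 and matplotlib 3.10.9, and the tests were tested on simulated data.

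Members and the 17 gene lists were chosen with earlier results of these data known. Genes named are called members, the 3 smallest p-values in each direction, a panel of subunits with known roles, extremes of level and variation, and the 3 smallest p-values of a list. A few others, such as the 5 further members without overlap, were named after their values were seen. The values of 1 gene of the panel are not reported here. Transcript lengths are medians of protein-coding transcripts in GENCODE M21, matched by symbol for 97.5% of tested genes and 80 members, and the length correction was a spline with 5 degrees of freedom. Alternatives were another pseudocount, filter, scaling, variance prior or library weighting, a replicate block, and each library left out. Another 4 were chosen after seeing the data, namely scaling to the same FPKM sum and 3 scalings without vehicle 2.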

Additional observations from a re-analysis of the deposited data

How the results depend on the processing

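Among values under alternatives, 363 stayed within 1.5 times the reported count or within the spread between libraries, and 39 moved. The 363 do not measure stability. A member median cannot change when a library outside the groups compared is left out or the variance prior is altered. The spread was 0.215, above the medians for palbociclib against vehicle (0.15), OPG-Fc against vehicle (0.07) and palbociclib against OPG-Fc (0.11). A change of sign could therefore count as staying. With vehicle 1 left out, the only vehicle tumour is the one without epithelial markers. The precision is limited by 2 or 3 tumours a group and by 1 tumour, combination 3, that was highest for most members.

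For palbociclib averaged over OPG-Fc, 3 members were called by limma, and 1 under quantile normalization (1.41% of all genes), 0 with array weights (lowest adjusted p 0.309), 0 with libraries sharing a column number averaged (0.177), 0 after length correction (0.0551), 1 after length correction without vehicle 2 (2.64% of all genes), 8 with the same FPKM sum (17.1%), and 0 to 23 on leaving out each library (23 with 53% of all genes). Atp5md has no length and was not tested in the length correction. With array weights limma called 1 member for the combination against palbociclib (5.13% of all genes), 41 for the combination against OPG-Fc (26.7%) and 6 for palbociclib against OPG-Fc (20.3%), where 0 were called before. For the combination against vehicle 2 members were called with the filter at FPKM 5 (0.87% of all genes) and 1 under quantile normalization without vehicle 2 (0.145%). For the combination against OPG-Fc without vehicle 2, length correction (2.28% of all genes) and the same FPKM sum (13.3%) each gave 1. For palbociclib against OPG-Fc, fitting only the groups compared gave 2 (10.8% of all genes), and without vehicle 2 quantile normalization gave 3 (8.63%), length correction 2 (12.3%) and the same FPKM sum 1 (11.9%). Leaving out each library gave 0 to 9 calls for palbociclib against vehicle, 0 to 6 for OPG-Fc against vehicle, 0 to 19 for the combination against vehicle and 0 to 8 for the interaction, each highest without vehicle 1, where 52%, 40.3%, 50.8% and 36.7% of all genes were called. It gave 0 to 2 for the combination against OPG-Fc, highest without vehicle 1 (4.77% of all genes) or vehicle 2 (4.7%). The cause was not tested.

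For the combination against vehicle the median over the members moved to 0.24 after length correction, beside -0.015 over all genes. It was 0.12 beside -0.31 with the same FPKM sum, and 0.26 beside -0.30 without vehicle 2 as well. With the same FPKM sum it was 0.13 beside -0.34 for the combination against OPG-Fc, also without vehicle 2. On that scaling it was 0.033 beside -0.26 for palbociclib averaged over OPG-Fc. On leaving out each library it ranged from -0.10 to 0.23 for OPG-Fc against vehicle, 0.06 to 0.36 for palbociclib against vehicle, 0.29 to 0.63 for the combination against vehicle, 0.26 to 0.53 for the combination against OPG-Fc, 0.14 to 0.41 for the combination against palbociclib, 0.01 to 0.20 for palbociclib against OPG-Fc and 0.21 to 0.39 for palbociclib averaged over OPG-Fc. With the replicate number as a block, 0 members were called for palbociclib averaged over OPG-Fc (lowest adjusted p 0.126) and the other counts of 0 did not change. Deviations of same-numbered libraries from their group means correlated above 0.1 in 5 of 15 pairs (r from -0.406 to 0.528). This cannot show whether the numbers pair the tumours. Deviations within a group are tied to each other by construction, and pairs with different numbers were not compared.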
